A study of Mus musculus with 3 samples.

Results

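The 33 genes described here encode subunits of the Polycomb repressive complexes PRC1 and PRC2 and the enzymes that remove the PRC2 mark, out of 32285 genes in the deposited tables. They were taken by gene symbol from a list of subunits, and each symbol had 1 identifier. The rule itself used no measured value, but the list was chosen with earlier results of these data known. Counts came from single-cell 3' RNA libraries of E14tg2a, an established mouse embryonic stem cell line, in which both copies of Fgf4 were mutated (genotype Fgf4 -/-). Cells were plated in embryonic stem cell medium with LIF and then kept for 24 h in N2B27 with Chiron, an inhibitor of the kinase GSK3 that activates Wnt signalling, and heparin. The groups were 0, 5 and 50 ng/ml of FGF4 in that medium, with 1 library for each dose. The sources used here do not say whether the mutant line was 1 clone.

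PRC2 places trimethylation on lysine K27 of histone H3 through its catalytic subunits Ezh2 or Ezh1, which work only together with Eed and Suz12. PRC1 ubiquitylates histone H2A through Rnf2 or Ring1, and each PRC1 complex is built around 1 PCGF protein. In canonical PRC1 a CBX protein reads the PRC2 mark, whereas variant PRC1 carries Rybp or Yaf2 and can be brought to unmethylated CpG islands by Kdm2b. In embryonic stem cells both complexes are known for holding developmental regulator genes at low activity, and Kdm6a and Kdm6b remove the mark.

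The libraries held 373, 874 and 975 cells at 0, 5 and 50 ng/ml, with 42726514, 75184072 and 81409975 unique molecular identifiers (UMIs, 1 per captured transcript). Median UMIs per cell were 107873, 91764 and 87334, and no cell barcode occurred in more than 1 library. Embryonic stem cell markers were abundant, with all 8 listed markers above 20 counts per 1000000 UMIs (CPM) in at least 1 library and a summed level of 1605 to 1977 CPM. Defining fibroblast markers were close to 0, with Col3a1 and Postn at 0 UMIs in every library and the list of 8 at 2.25 to 3.07 CPM in sum. Each dose was 1 library, so no test between doses was possible. All intervals are 95% intervals of counting error, so a gene named as higher or lower is so in these libraries. Both comparisons with the dose of 0 share the same library without FGF4.

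Most Polycomb genes differed little between the doses, and 4 stood out. With FGF4, transcripts of Kdm2b, Phc1, Jarid2 and Rbbp7 exceeded their level without it by 1.5-fold or more, both at 5 and at 50 ng/ml. These 4 belong to different assemblies: Kdm2b to variant PRC1, Phc1 to canonical PRC1, Jarid2 to the PRC2.2 form of PRC2, and Rbbp7 to the PRC2 core. Summed over all cells, no member with at least 20 CPM was 1.5-fold lower at either dose. The largest differences below the level without FGF4 were among scarce transcripts, namely Cbx8, Bmi1 and Phf19.

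Of the 33 members, 20 reached 20 CPM in the higher of the libraries compared. At 50 ng/ml, 4 of these 20 exceeded the library without FGF4 by 1.5-fold or more, beside 4.50% of all 5709 genes at that level. In the other direction the count was 0 of 20, beside 5.96% of all genes. The median log2 ratio over these members was 0.06, beside 0.02 over all genes. At 5 ng/ml the same limit was passed by 4 of 20 upwards and 0 of 20 downwards, beside 3.71% and 3.99% of 5691 genes, with a median log2 ratio of 0.14 beside 0.03. At a limit of 2-fold, 1 member, Kdm2b, was higher at each dose and 0 were lower. The shares of all genes were then 1.98% higher and 2.03% lower at 50 ng/ml, and 1.41% and 1.32% at 5 ng/ml. Between 5 and 50 ng/ml, 0 of 20 members were 1.5-fold apart in either direction, beside 0.182% of 5501 genes higher and 0.345% lower. The 13 members under 20 CPM took no part in these counts.

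**Figure D1:**
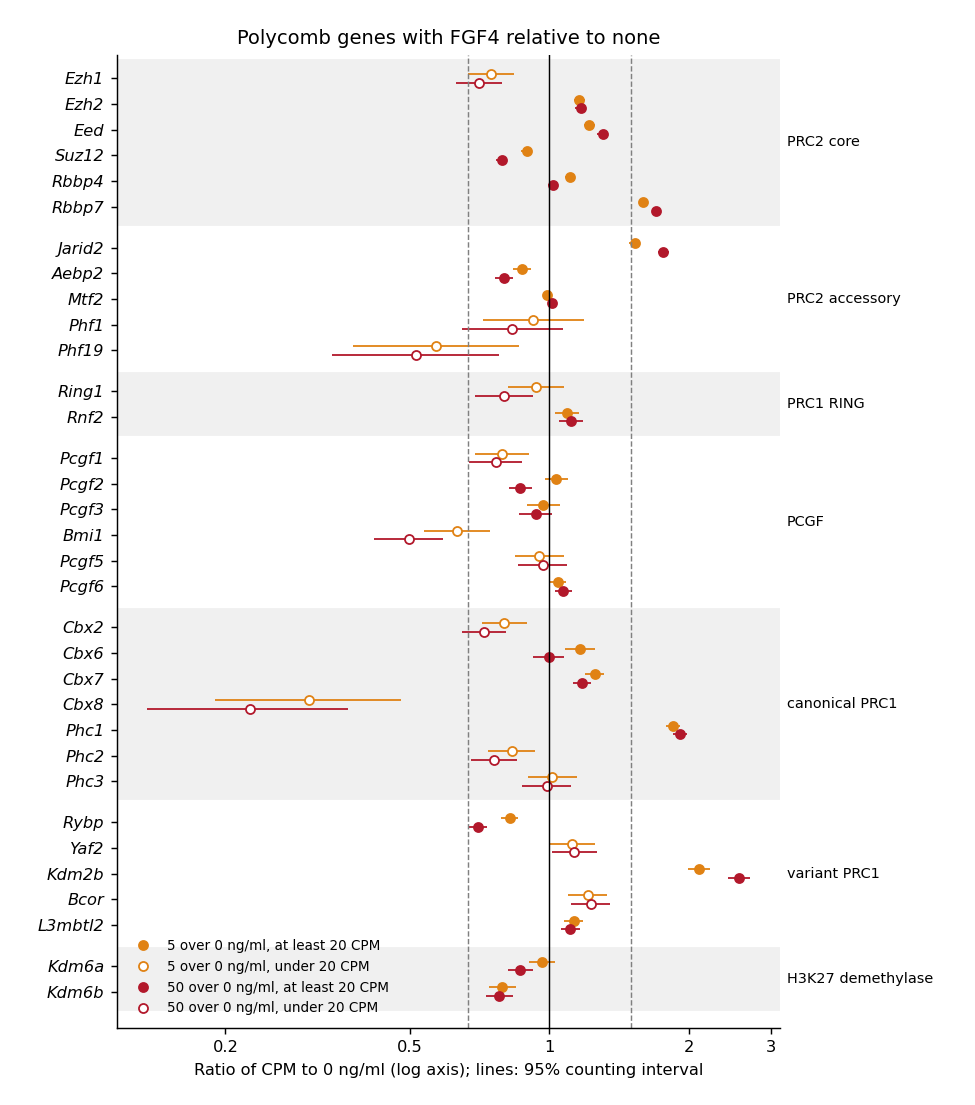
Ratio of CPM at 5 (orange) and 50 ng/ml FGF4 (red) to 0 ng/ml on a log axis for the 33 genes, grouped by role; lines are 95% counting intervals, open circles mark genes under 20 CPM, and dashed lines mark 1.5-fold. Kdm2b, Phc1, Jarid2 and Rbbp7 lie to the right of the dashed line, and the genes to the left of it are all open circles.

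Kdm2b encodes the CxxC zinc-finger protein that binds unmethylated CpG sites and carries variant PRC1 there (ENSMUSG00000029475, mm10 chromosome 5, 122870665 to 122989823, minus strand). Its level was 37.8 CPM without FGF4, 79.6 CPM at 5 ng/ml and 97.0 CPM at 50 ng/ml, so all 3 libraries were apart and in dose order. This was 2.10-fold higher (95% interval 1.99 to 2.22) at 5 ng/ml and 2.56-fold higher (2.43 to 2.71) at 50 ng/ml. Between the doses the ratio was 1.22 (1.18 to 1.26). With equal weight for 3 cell cycle classes, described further on, the log2 ratios of Kdm2b were 0.69 and 0.59 at 5 and 50 ng/ml. The order of the doses then turned. That setting gives full weight to a class of few cells, rich in mitochondrial UMIs with FGF4. Kdm2b overlaps 2 genes on the opposite strand in the annotation, and the sources used here do not say whether counting used the strand. Of these, the ubiquitin ligase gene Rnf34 stood at 38.7, 35.6 and 34.4 CPM, and the noncoding gene A930024E05Rik at 2.32, 8.25 and 10.2 CPM.

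Phc1, a Polyhomeotic protein whose SAM domain lets canonical PRC1 units join into chains (ENSMUSG00000040669, chromosome 6, 122317731 to 122340561, minus strand), stood at 99.9, 185 and 191 CPM in dose order. The library without FGF4 was low and both libraries with FGF4 were high and close to each other. Phc1 was 1.85-fold higher (1.79 to 1.91) at 5 ng/ml and 1.92-fold higher (1.85 to 1.98) at 50 ng/ml. On the log2 scale, 94.6% of the difference seen at 50 ng/ml was already present at 5 ng/ml, against 78.9% for Kdm2b.

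Jarid2, a DNA- and nucleosome-binding partner that recruits PRC2 (ENSMUSG00000038518, chromosome 13, 44729474 to 44921643, plus strand), stood at 149, 227 and 262 CPM. It was 1.53-fold higher (1.48 to 1.57) at 5 ng/ml and 1.76-fold higher (1.71 to 1.81) at 50 ng/ml, and the 2 doses also lay apart at a ratio of 1.15 (1.13 to 1.18). With equal weight per cell Jarid2 had a log2 ratio of 0.52 at 5 ng/ml, under 1.5-fold. With equal weight for 3 cell cycle classes it was also under 1.5-fold, at log2 ratios of 0.25 and 0.17 at 5 and 50 ng/ml. Rbbp7, a WD40 histone-binding protein shared with histone deacetylase complexes (ENSMUSG00000031353, X chromosome, 162760402 to 162779092, plus strand), was the most abundant member with FGF4. It stood at 247, 394 and 420.2 CPM, 1.59-fold higher (1.56 to 1.63) at 5 ng/ml and 1.699-fold higher (1.66 to 1.74) at 50 ng/ml. With equal class weights Rbbp7 was under 1.5-fold, at log2 ratios of 0.39 and 0.36. Its opposite-strand neighbour Txlng stood at 39.4, 44.3 and 42.0 CPM.

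The start regions of these 4 genes are shown because their transcripts were higher together. They come from RefSeq (GRCm38.p6, the assembly of mm10) and run from 250 bases before to 50 after a start, 5′ to 3′ on the gene's strand. Kdm2b has 4 RefSeq entries at 3 places, since the windows of 2 entries overlap, and 1 window is shown for each place. Jarid2 has 2 entries, both shown. A 3' UMI does not tell which start a transcript used. Capitals mark matches on either strand to 1 of 5 searched motifs, here the ETS core CCGGAA and the TATA box TATAAA.
Kdm2b, start 1, chr5:122988458-122988757, minus strand: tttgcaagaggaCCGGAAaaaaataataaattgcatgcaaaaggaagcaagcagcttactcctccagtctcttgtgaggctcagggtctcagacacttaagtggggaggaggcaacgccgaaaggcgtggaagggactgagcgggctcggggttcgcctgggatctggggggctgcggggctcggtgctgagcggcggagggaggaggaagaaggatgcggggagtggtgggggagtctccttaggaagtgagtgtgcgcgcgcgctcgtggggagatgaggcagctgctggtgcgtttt
Kdm2b, start 2, chr5:122900318-122900617, minus strand: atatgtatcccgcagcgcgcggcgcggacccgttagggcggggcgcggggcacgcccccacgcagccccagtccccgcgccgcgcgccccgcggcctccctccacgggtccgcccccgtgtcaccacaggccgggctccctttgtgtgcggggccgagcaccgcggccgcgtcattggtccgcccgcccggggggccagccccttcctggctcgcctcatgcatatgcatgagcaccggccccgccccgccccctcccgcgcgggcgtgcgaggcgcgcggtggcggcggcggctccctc
Kdm2b, start 3, chr5:122989050-122989349, minus strand: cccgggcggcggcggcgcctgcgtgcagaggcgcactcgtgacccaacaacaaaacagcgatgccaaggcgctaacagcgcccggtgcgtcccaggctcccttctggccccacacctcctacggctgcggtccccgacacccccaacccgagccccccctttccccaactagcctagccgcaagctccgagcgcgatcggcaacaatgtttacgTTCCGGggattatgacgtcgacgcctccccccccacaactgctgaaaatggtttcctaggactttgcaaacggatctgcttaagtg
Phc1, chr6:122340178-122340477, minus strand: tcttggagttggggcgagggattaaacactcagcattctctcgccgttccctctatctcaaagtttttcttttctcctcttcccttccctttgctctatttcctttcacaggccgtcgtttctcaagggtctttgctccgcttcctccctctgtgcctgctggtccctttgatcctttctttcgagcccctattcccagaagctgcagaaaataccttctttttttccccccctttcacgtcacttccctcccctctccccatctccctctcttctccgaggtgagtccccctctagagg
Jarid2, start 1, chr13:44730524-44730823, plus strand: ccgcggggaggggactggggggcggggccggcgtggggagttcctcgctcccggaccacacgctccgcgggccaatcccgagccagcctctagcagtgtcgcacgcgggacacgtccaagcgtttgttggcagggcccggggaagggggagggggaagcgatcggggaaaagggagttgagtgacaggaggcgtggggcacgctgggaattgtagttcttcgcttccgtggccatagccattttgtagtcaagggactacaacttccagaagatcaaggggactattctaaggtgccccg
Jarid2, start 2, chr13:44731021-44731320, plus strand: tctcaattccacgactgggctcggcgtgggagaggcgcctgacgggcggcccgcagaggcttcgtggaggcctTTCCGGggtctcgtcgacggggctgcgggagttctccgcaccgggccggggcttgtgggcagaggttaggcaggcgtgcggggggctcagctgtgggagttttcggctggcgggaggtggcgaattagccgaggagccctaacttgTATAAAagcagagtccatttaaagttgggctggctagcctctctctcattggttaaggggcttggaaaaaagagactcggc
Rbbp7, chrX:162760122-162760421, plus strand: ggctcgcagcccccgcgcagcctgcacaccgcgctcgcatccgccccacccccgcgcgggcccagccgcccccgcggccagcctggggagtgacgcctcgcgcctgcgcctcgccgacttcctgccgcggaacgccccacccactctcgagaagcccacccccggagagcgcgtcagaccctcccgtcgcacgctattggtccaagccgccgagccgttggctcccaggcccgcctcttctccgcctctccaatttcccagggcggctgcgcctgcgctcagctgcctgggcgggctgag

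The ETS core was found at starts 1 and 3 of Kdm2b and at start 2 of Jarid2, and that Jarid2 window also held the TATA box. The other motifs searched on both strands were the E-box CACGTG, the E2F site GGCGGGAA and the TCF/LEF site TTCAAAG. RefSeq windows were matched for 28 of the 33 members. Among their first entries the ETS core occurred in 2 of 28 members, beside 14.9% of all 32851 windows, and the E-box in 8 of 28, beside 7.15% of all windows. The TCF/LEF site occurred in 1 of 28 (5.14% of all), the TATA box in 0 of 28 (13.6%) and the E2F site in 0 of 28 (2.19%). The members' windows held a median of 23.5 CpG sites, against 7 over all windows, which bears on any motif that itself holds CpG. Phc1 was an exception among the 4, with 9 CpG sites in its window, where Rbbp7 had 38.

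Of the catalytic PRC2 core, Ezh2 and Eed were slightly higher with FGF4 and Suz12 slightly lower, except that Ezh2 at both doses and Eed at 5 ng/ml were below their level without FGF4 when 3 cell cycle classes had equal weight. Ezh2, the main methyltransferase subunit, stood at 175, 203 and 204 CPM, so both doses lay above none and close to each other, at ratios of 1.16 (1.13 to 1.19) and 1.17 (1.14 to 1.20). Eed, which binds the mark and stimulates the enzyme, stood at 190.2, 232 and 248 CPM, 1.30-fold higher (1.27 to 1.34) at 50 ng/ml. Suz12, the scaffold of the complex, went the other way, at 203, 182 and 160.3 CPM, 1.27-fold lower (1.23 to 1.30) at 50 ng/ml. The histone-binding subunit Rbbp4 stood at 257, 285 and 262 CPM, highest at the middle dose, with a ratio of 1.02 at 50 ng/ml. That ratio took the opposite sign when each cell, or each cell cycle class, was weighted equally. Ezh1, the less active paralogue of Ezh2, was scarce, at 12.5, 9.32 and 8.76 CPM, 1.42-fold lower (1.27 to 1.59) at 50 ng/ml.

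The accessory subunits define 2 forms of PRC2. Mtf2, a Polycomb-like protein of the PRC2.1 form that binds DNA at CpG islands, was the most abundant member without FGF4 and stood at 373, 368 and 377 CPM. Its relatives were scarce: Phf1 stood at 2.48, 2.29 and 2.06 CPM, and Phf19 at 1.17, 0.665 and 0.602 CPM. Phf19 was 1.94-fold lower at 50 ng/ml, on 50 and 49 UMIs, with an interval of 1.28 to 2.94. In PRC2.2, Aebp2, a zinc-finger partner found with Jarid2, stood at 76.6, 67.0 and 61.2 CPM, 1.251-fold lower (1.197 to 1.31) at 50 ng/ml. Jarid2 and Aebp2 thus lay on opposite sides of their levels without FGF4.

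**Figure D2:**
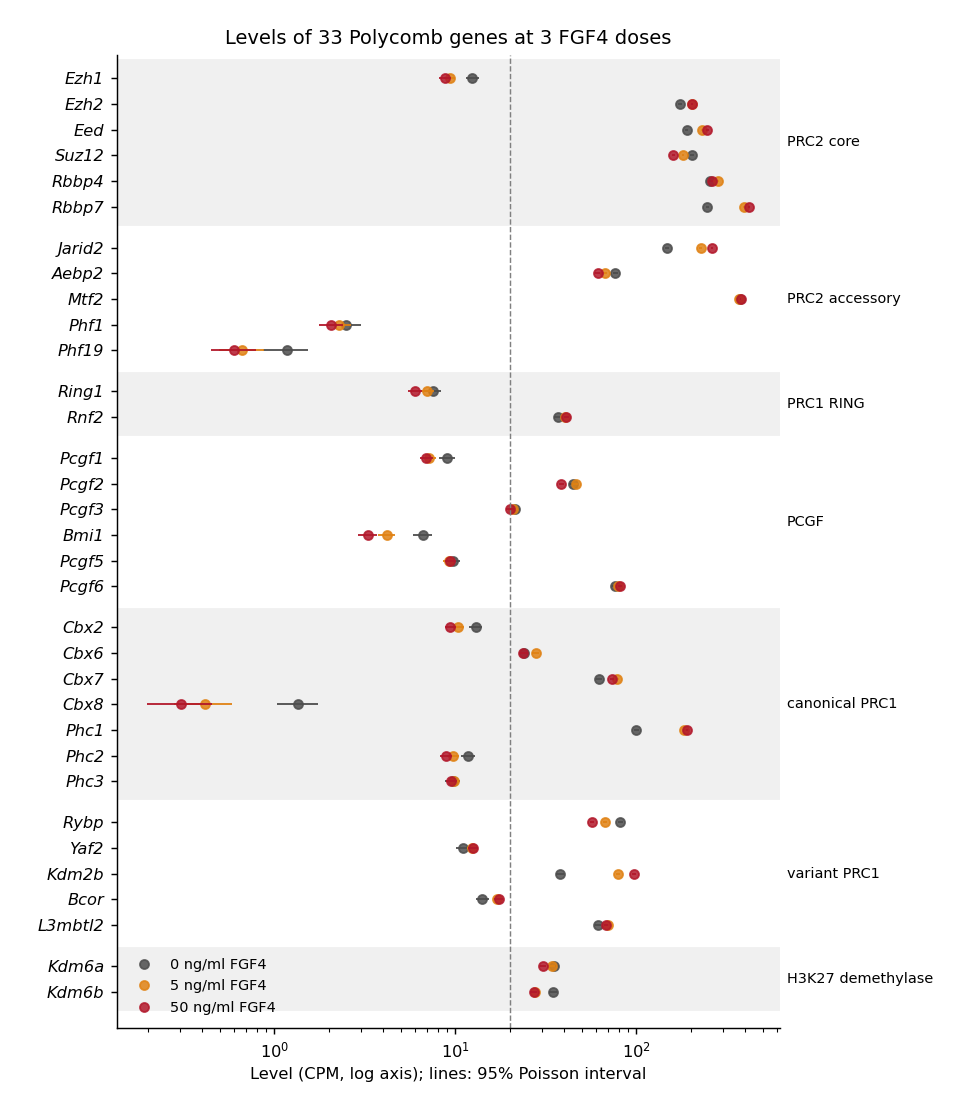
Level of each of the 33 genes in CPM on a log axis at 0 (grey), 5 (orange) and 50 ng/ml FGF4 (red), with 95% Poisson intervals; the dashed line marks 20 CPM. Ezh2, Eed, Suz12, Rbbp4, Rbbp7, Jarid2 and Mtf2 lie above 100 CPM at every dose, whereas Cbx8 and Phf19 lie near or below 1 CPM.

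The catalytic RING subunits of PRC1 were modest in level and differed little. Rnf2 (also called RING1B), the main H2A ubiquitin ligase of these cells, stood at 36.9, 40.3 and 41.1 CPM, a ratio of 1.11 (1.05 to 1.18) at 50 ng/ml that fell below 1 with equal class weights. Its paralogue Ring1 stood at 7.51, 7.02 and 5.98 CPM, 1.26-fold lower (1.09 to 1.45) at 50 ng/ml.

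Among the PCGF proteins, which set the type of PRC1 complex, Pcgf6 was the most abundant. It stood at 75.9, 79.2 and 81.3 CPM, and its ratio of 1.07 at 50 ng/ml changed side when each cell or each class was weighted equally. Pcgf2 (also called MEL18), the main canonical PCGF of embryonic stem cells, stood at 44.7, 46.3 and 38.7 CPM, 1.16-fold lower (1.09 to 1.22) at 50 ng/ml. Pcgf3 stood at 21.4, 20.8 and 20.02 CPM, Pcgf5 at 9.71, 9.24 and 9.38 CPM and Pcgf1, the partner of Kdm2b, at 9.06, 7.16 and 6.94 CPM. Bmi1 (also called Pcgf4), the canonical PCGF known from differentiated tissues, stood at 6.62, 4.18 and 3.29 CPM. It was in falling order over the doses, 1.59-fold lower (1.35 to 1.87) at 5 ng/ml, and the fold difference at 50 ng/ml was 2.01 (1.696 to 2.39).

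In canonical PRC1, Cbx7 was the most abundant of the 4 CBX genes at every dose. Cbx7, the CBX protein typical of embryonic stem cells, stood at 62.6, 78.4 and 73.5 CPM, highest at the middle dose, with ratios of 1.252 (1.196 to 1.31) at 5 and 1.17 (1.12 to 1.23) at 50 ng/ml, both below 1 with equal class weights. Cbx2 and Cbx8, known for taking over from Cbx7 during differentiation, were both lower with FGF4. Cbx2 stood at 13.0, 10.4 and 9.38 CPM, 1.38-fold lower (1.24 to 1.55) at 50 ng/ml. Cbx8 rested on 58, 31 and 25 UMIs, or 1.36, 0.412 and 0.307 CPM, and was 4.42-fold lower (2.72 to 7.38) at 50 ng/ml. Cbx6 stood at 23.9, 27.8 and 23.8 CPM. Of the other Polyhomeotic genes, Phc2 stood at 11.7, 9.74 and 8.93 CPM and Phc3 at 9.67, 9.82 and 9.53 CPM, so neither followed Phc1.

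The variant PRC1 genes other than Kdm2b were within 1.5-fold. Rybp, which stimulates the ligase activity of variant PRC1, stood at 81.6, 67.0 and 57.1 CPM, falling with dose and 1.43-fold lower (1.37 to 1.49) at 50 ng/ml. This was the lowest ratio among members with at least 20 CPM, and with equal class weights the log2 ratios of Rybp were -0.84 and -1.40 at 5 and 50 ng/ml, past 1.5-fold. Its paralogue Yaf2 stood at 11.05, 12.4 and 12.5 CPM. Bcor, the corepressor that sits with Kdm2b and Pcgf1, stood at 14.1, 17.1 and 17.4 CPM, 1.23-fold higher (1.12 to 1.35) at 50 ng/ml, but lower with equal class weights. L3mbtl2, a reader found with Pcgf6, stood at 61.7, 69.6 and 68.4 CPM.

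Of the demethylases of the PRC2 mark, Kdm6b was lower at both doses and Kdm6a at 50 ng/ml. Kdm6a (UTX) stood at 35.3, 34.0 and 30.6 CPM. Its ratio at 5 ng/ml was 0.964, with an interval of 0.904 to 1.03 that holds 1, and it was above 1 with equal class weights. At 50 ng/ml Kdm6a was 1.16-fold lower (1.08 to 1.23). Kdm6b (JMJD3) stood at 34.8, 27.6 and 27.2 CPM. Kdm6b was 1.26-fold lower (1.18 to 1.35) at 5 ng/ml, and for 50 ng/ml the fold was 1.28 (1.20 to 1.37), so its 2 libraries with FGF4 were close to each other and below the one without.

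Over the doses, 10 of the 33 members were in rising order, 15 in falling order, 6 highest and 2 lowest at 5 ng/ml. Of the 13 members under 20 CPM, 9 were in falling order and 2 in rising order. The share of all genes under 20 CPM in each order is not given here. Counts that include these 13 members therefore have no background and are not read as a trait of them. Of the 20 members with more, 8 rose in order and 6 fell in order, which is 40% and 30%, beside 32.0% and 30.4% of all 5745 genes that reached 20 CPM in a library. An order of 3 single libraries carries no replicate check.

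Shares within groups of paralogues do not depend on how libraries are scaled to each other. UMIs were read per captured transcript and not per length, since a 3' tag counts each transcript once. Among Rbbp4 and Rbbp7, Rbbp7 made up 49.0% of UMIs (exact binomial 95% interval 48.4 to 49.7) without FGF4, and then 58.1% (57.7 to 58.5) and 61.6% (61.2 to 62.0), so the pair went from even to mostly Rbbp7. Among Jarid2 and Aebp2, Jarid2 made up 66.0% (65.0 to 67.0), 77.2% (76.7 to 77.8) and 81.1% (80.6 to 81.5). Among the Polyhomeotic genes, Phc1 made up 82.4% (81.3 to 83.4), 90.4% (89.9 to 90.9) and 91.2% (90.8 to 91.6).

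The other groups shifted less. Ezh2 made up 93.4%, 95.6% and 95.9% of Ezh1 and Ezh2 UMIs, Rnf2 83.1%, 85.2% and 87.3% of the RING pair, and Mtf2 99.0%, 99.2% and 99.3% of the Polycomb-like group. Cbx7 made up 62.1% (60.6 to 63.5), 67.0% (66.0 to 68.0) and 68.7% (67.7 to 69.7) of the 4 CBX genes, and Cbx2 12.9%, 8.88% and 8.77%. In the PCGF group Pcgf6 made up 45.4%, 47.5% and 50.9%, and Bmi1 3.96%, 2.504% and 2.06%. Rybp went from 88.1% to 82.1% of the Rybp and Yaf2 pair at 50 ng/ml. Kdm6a and Kdm6b stayed near even, with Kdm6a at 50.4%, 55.3% and 53.0%.

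**Figure D3:**
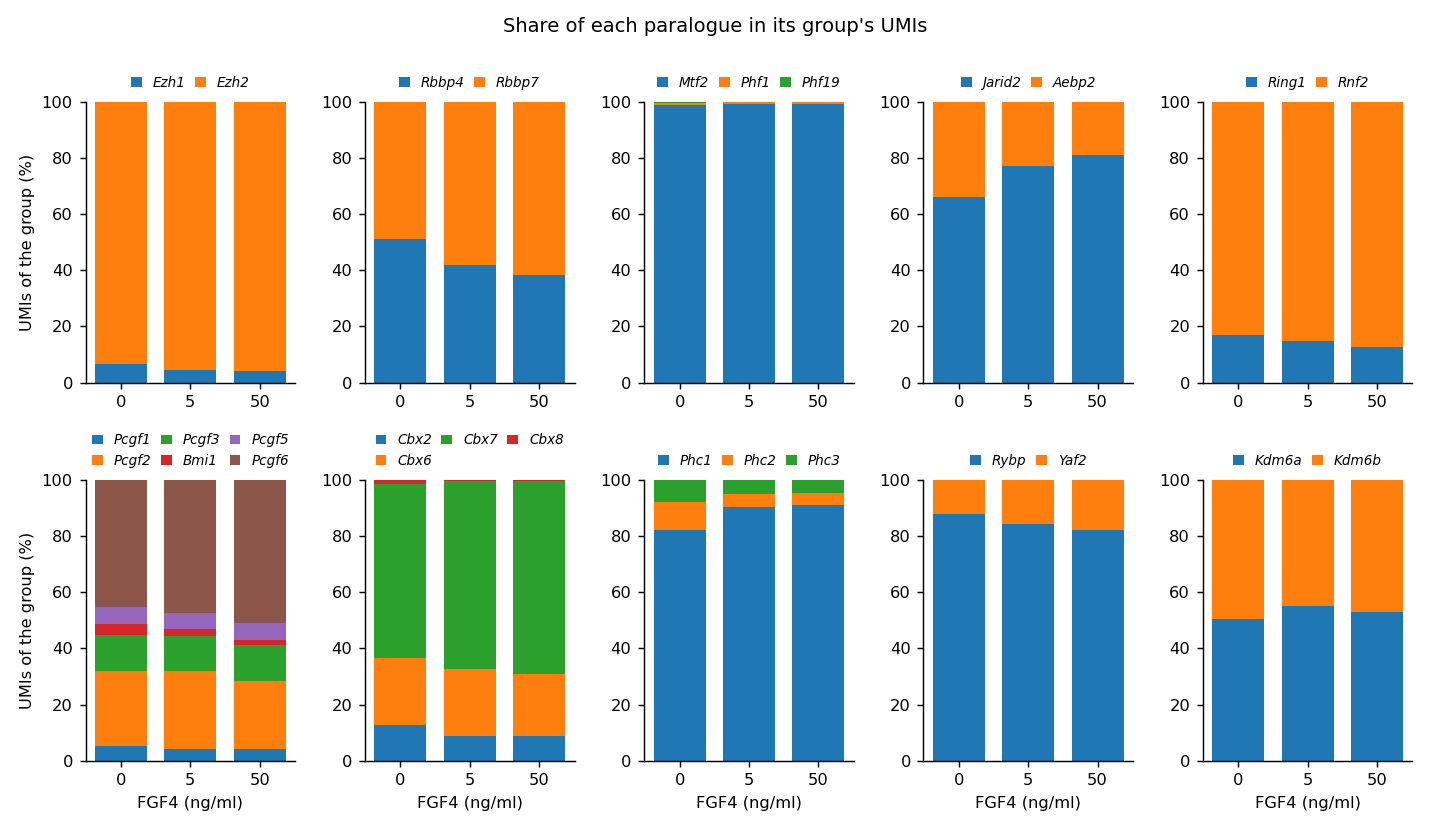
Percent of each paralogue group's UMIs that each gene contributed at 0, 5 and 50 ng/ml FGF4, as stacked bars; intervals are in the text. Rbbp7, Jarid2 and Phc1 take a larger part of their bars with FGF4, and Kdm6a and Kdm6b stay near even.

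Per cell, the distributions of the 4 leading genes lay higher with FGF4, and most cells then exceeded the median of the library without it. Cells of different libraries are not pairs, so a difference in any single cell cannot be read. Each cell was thinned at random to 40000 UMIs, which kept 360, 706 and 793 cells and left out 13, 168 and 182 shallower ones. Kdm2b had a median of 1 UMI per cell without FGF4 and 3 at both doses, with means of 1.52, 3.11 and 3.83. The share of cells above the median of the library without FGF4 was 42.2% (37.1 to 47.5) at 0, 74.1% (70.7 to 77.3) at 5 and 83.0% (80.2 to 85.5) at 50 ng/ml. Phc1 had medians of 4, 7 and 7 UMIs, Jarid2 of 5, 8 and 9, and Rbbp7 of 10, 15 and 17. For Rbbp7, 46.1%, 80.9% and 84.6% of cells lay above the median of 10 UMIs, and for Jarid2, 48.9%, 74.8% and 83.6% lay above 5 UMIs.

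**Figure D4:**
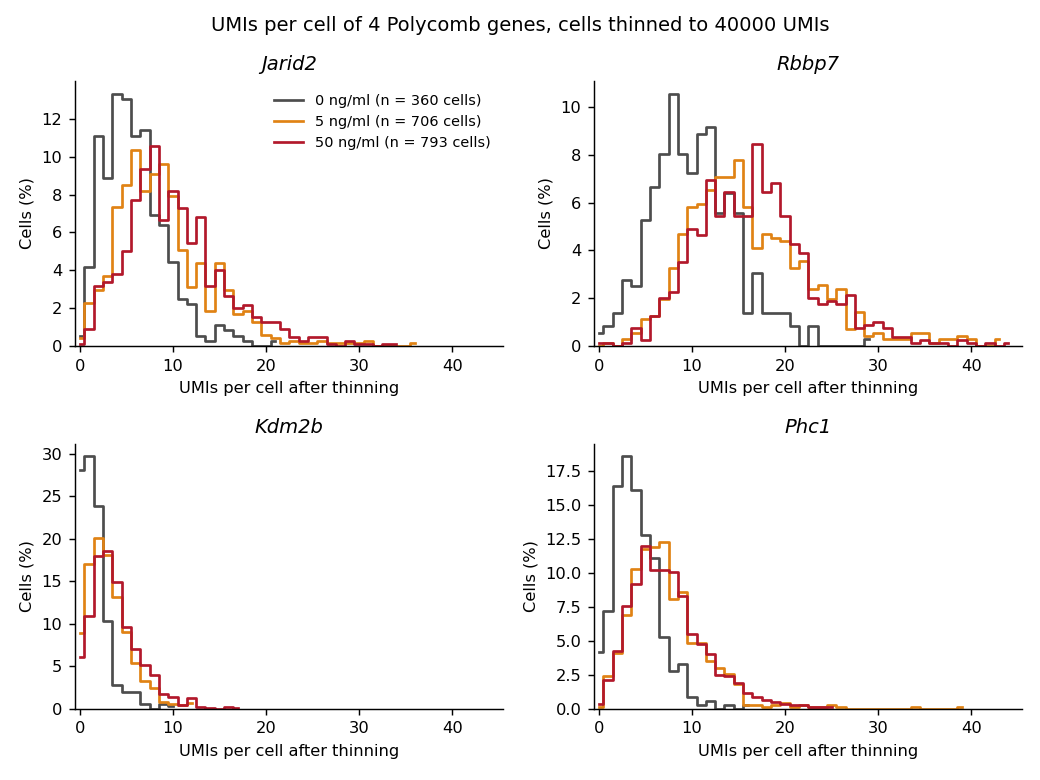
Percent of cells at each UMI count for Jarid2, Rbbp7, Kdm2b and Phc1 after thinning every cell to 40000 UMIs, at 0 (grey), 5 (orange) and 50 ng/ml FGF4 (red). The curve of each gene is centred further right with FGF4, and the curves overlap.

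Variation among cells was read as the Fano factor, the variance of UMIs over their mean, which is 1 when only counting varies. Among members with a mean of at least 0.5 UMI per cell, the median Fano factor was 1.47, 1.32 and 1.38 at 0, 5 and 50 ng/ml. Over all genes that passed the same minimum it was 1.18, 1.18 and 1.17. These genes were not matched to the members in mean, so the difference is not read as a trait of the members. The members ranged from 0.936 to 2.48 without FGF4 and from 1.00 to 2.77 at 50 ng/ml. Jarid2 had factors of 1.94, 2.88 and 2.77, Rbbp7 of 1.97, 2.83 and 2.36, and Phc1 of 1.47, 2.42 and 2.19. Their means also differed, and coefficients of variation were lower with FGF4, at 0.573, 0.566 and 0.521 for Jarid2 and 0.601, 0.572 and 0.540 for Phc1. Of 21 members compared, 9 had a higher Fano factor at 50 ng/ml than without FGF4, beside 49.4% of 6379 genes. This count was 10 to 15 over a second random seed, a cell filter and other thinning depths, each time above the 9 of the main setting. It thus gives no direction. Across cells of 1 library the UMIs of the 4 leading genes were at most weakly correlated. Pearson r lay between 0.00236 and 0.204 over the 6 pairs in 3 libraries, on log2 UMIs plus 1. Counting error lowers r at so few UMIs per cell, so these values cannot tell whether the genes varied independently.

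Some members differed between cells scored for S phase and cells scored for G2 and M, from lists that hold no member. The S class held 32.98%, 52.1% and 48.8% of cells in order of dose, so the mixture of classes differed between libraries. In all, 57, 196 and 239 cells lay near a class limit. Ezh2 was higher in S than in G2/M cells at each dose, at ratios of 1.13 (1.08 to 1.19), 1.21 (1.17 to 1.251) and 1.17 (1.13 to 1.203). Phc1 was lower in S than in G2/M cells, at 0.875 (0.818 to 0.937), 0.780 (0.754 to 0.807) and 0.777 (0.752 to 0.803). Jarid2 was likewise lower in S cells, at 0.857, 0.751 and 0.789, as was Mtf2, at 0.846, 0.834 and 0.858. Cbx2, with under 20 CPM, was higher in S cells, at 1.46 (1.23 to 1.74), 2.20 (1.89 to 2.56) and 1.79 (1.55 to 2.08). Over the members with at least 20 CPM the median ratio of S to G2/M was 1.02, 1.03 and 1.03, beside 1.00, 1.02 and 1.007 over all genes.

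Within the S class and within the G2/M class the 4 leading genes were higher at 50 ng/ml. Kdm2b was 2.53-fold higher (2.30 to 2.78) among S cells and 2.61-fold higher (2.44 to 2.79) among G2/M cells. Phc1 was 1.82-fold (1.71 to 1.94) and 2.05-fold (1.96 to 2.13) higher, Jarid2 1.72-fold (1.64 to 1.82) and 1.87-fold (1.81 to 1.94), and Rbbp7 1.57-fold (1.52 to 1.63) and 1.75-fold (1.71 to 1.80). The third class, of cells high in neither score, held 10, 25 and 31 cells, with a median mitochondrial share of 7.99%, 94.9% and 95.1% of UMIs. In these few cells Kdm2b, Jarid2 and Rbbp7 were lower at 50 ng/ml than without FGF4, on 2 against 22, 15 against 87 and 31 against 98 UMIs, at 9.87 against 60.5, 74.1 against 239 and 153 against 269 CPM. Phc1 stood at 183 against 98.9 CPM there. Giving 3 classes equal weight therefore lets these few cells count as much as the others.

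**Figure D5:**
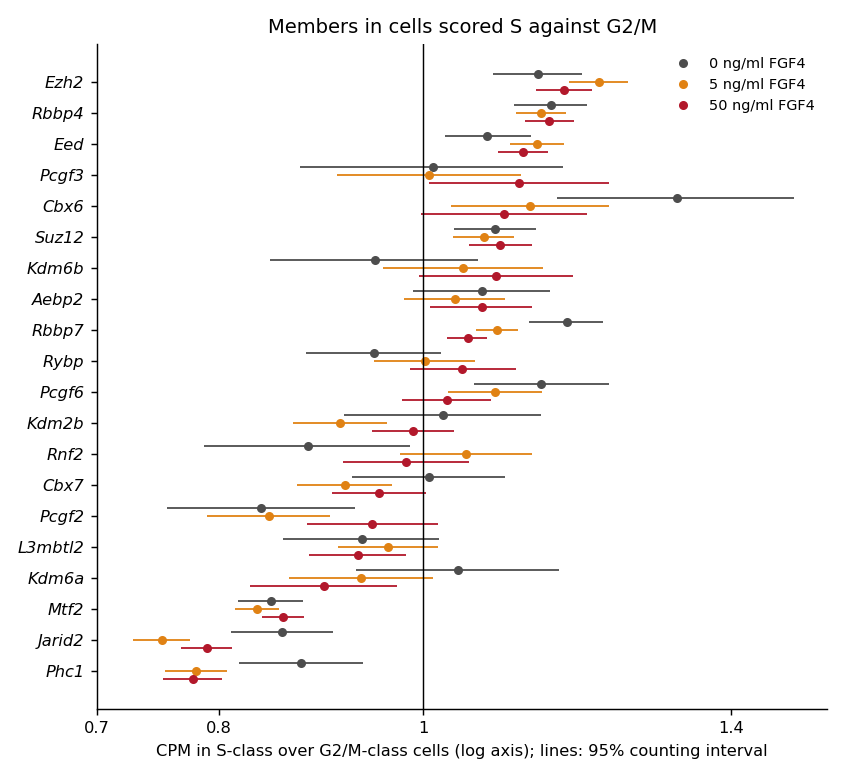
Ratio of CPM in S-class over G2/M-class cells on a log axis for the 20 members with at least 20 CPM in a library, at 0 (grey), 5 (orange) and 50 ng/ml FGF4 (red); lines are 95% counting intervals. Ezh2, Rbbp4 and Eed lie to the right of 1 at every dose, and Mtf2, Jarid2 and Phc1 to the left.

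Other genes of the Polycomb machinery were read from a list of 37. Of these, 22 had at least 20 CPM, and of these 0 passed 1.5-fold upwards and 2 downwards at 50 ng/ml, beside 4.50% and 5.96% of all genes, with a median log2 ratio of -0.04 beside 0.02. At 5 ng/ml the counts were 0 and 1, beside 3.71% and 3.99%. The 2 were Fbrsl1, a relative of the variant PRC1 partner Auts2, and Wdr5, a WD40 protein of H3K4 methyltransferase and Pcgf6 complexes. Fbrsl1 stood at 67.2, 37.7 and 31.1 CPM, 2.16-fold lower (2.05 to 2.28) at 50 ng/ml. Wdr5 stood at 116, 79.7 and 74.3 CPM, 1.56-fold lower (1.51 to 1.62).

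Developmental genes known as Polycomb targets in embryonic stem cells were mostly low at every dose. Of 44 listed, 30 were under 1 CPM in every library, 6 reached 5 CPM in any and 1 reached 20 CPM. That one, Cdkn2a, which encodes cell cycle inhibitors, stood at 21.6, 14.2 and 14.2 CPM, 1.52-fold lower (1.39 to 1.66) at 50 ng/ml. The list's summed level was 59.5, 73.9 and 86.4 CPM, against 2398, 2812 and 2840 CPM for the 33 Polycomb genes.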

How the data were processed

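The deposited matrices hold UMI counts per gene and cell barcode, written by Cell Ranger 4.0.0 per the file headers and aligned to mm10 per the submitters' processing notes. The sources used here do not name the annotation, the cell calling or the use of strand. Coordinates come from GENCODE M21 (GRCm38).

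Each library's UMIs were added up over its cells and divided by its total to give CPM. Levels carry exact Poisson intervals, ratios conditional binomial intervals and shares exact binomial intervals, all at 95% and for counting error only. Genes that reached 20 CPM in the higher of 2 libraries entered the counts at 1.5-fold and 2-fold. Where a gene had 0 UMIs, 3 UMIs were put in its place (0.0702, 0.0399 and 0.0369 CPM at 0, 5 and 50 ng/ml) before log2 ratios. Cells were thinned to 40000 UMIs without replacement. Cell cycle scores and doublets (Scrublet, 12, 7 and 26 cells, kept in the main values) came from scanpy 1.11.5, with 42 S and 52 G2/M genes. Ratio intervals and thinning were tested on simulated data.

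Named were all members; those 1.5-fold apart or furthest from 1 in their role group got intervals, as did others where a comparison is drawn. From the 2 further lists, genes at least 1.5-fold apart at 50 ng/ml with at least 20 CPM were named. Members and lists were chosen with earlier results of these data known. Alternatives were TMM (edgeR 4.0.16) and median-of-ratios (DESeq2 1.42.0) scaling, totals without mitochondrial and ribosomal protein genes, equal weight per cell, a cell filter (at most 10% mitochondrial UMIs, depth within 3-fold of the median), removal of doublets, other levels and fold limits, other thinning depths and equal weight per cell cycle class.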

Additional observations from a re-analysis of the deposited data

How the results depend on the processing

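No paired analysis was possible because each dose was 1 library. At 50 ng/ml against none, 4 members were at least 1.5-fold higher and 0 lower under TMM, median-of-ratios scaling, totals without mitochondrial and ribosomal protein genes, equal weight per cell, the cell filter, removal of doublets and a minimum of 50 CPM. At 5 ng/ml the same held, except that equal weight per cell gave 3 higher, with Jarid2 under 1.5-fold. A limit of 2-fold left 1 member, higher, at each dose. A limit of 5/4-fold gave 9 members at 50 ng/ml, 4 of them lower, and 1 lower at 5 ng/ml. A minimum of 5 CPM added 1 lower member, Bmi1, at each dose. Shares of all genes at the 5/4-fold limit and at the minimum of 5 CPM are not given here. The counts of members at these settings thus have no background beside them. The members' median log2 ratio was near 0 and did not keep its sign. At 5 and 50 ng/ml it was 0.046 and -0.031 with equal weight per cell, beside -0.042 and -0.066 over all genes. It was 0.036 and -0.013 with a minimum of 5 CPM, and 0.19 at 50 ng/ml with a minimum of 50 CPM.

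Equal weight for 3 cell cycle classes moved most values, since it gives the third class, of 10 to 31 cells, the weight of the others. With FGF4 that class is rich in mitochondrial UMIs, which are part of the totals. Changes of sign or size under this setting are therefore not read as traits of single genes. It gave 2 lower members and a median of -0.063 at 5 ng/ml against none. At 50 ng/ml against none it gave 7 members apart, 2 higher and 5 lower, with a median of -0.25, and Jarid2 and Rbbp7 were then 1.12-fold and 1.28-fold higher. Between 5 and 50 ng/ml it gave 2 members apart, both lower, with a median of -0.16. Over all 5650 genes with at least 20 CPM it gave 154 higher and 1532 lower at 50 ng/ml, against 257 and 340, with a median of -0.33. At 5 ng/ml it gave 151 higher and 845 lower of 5695 genes, with a median of -0.22. Between 5 and 50 ng/ml it gave 24 higher and 285 lower of 5101 genes, with a median of -0.094. The members' medians thus lay above those of all genes against none, and below between the doses. With S and G2/M classes alone weighted equally, an alternative chosen after seeing the data, the counts were 4 higher and 0 lower at each dose. None of Kdm2b, Phc1, Jarid2 and Rbbp7 took the opposite sign against the library without FGF4 under any of these 8 scalings and cell choices, whereas Ezh2, Cbx7, Rnf2 and Bcor did under equal weight for 3 classes. Members below 3 CPM, such as Cbx8 and Phf19, rest on 25 to 201 UMIs in a library, which limits their precision.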

Other observations

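A few genes on the list of Polycomb targets were higher with FGF4, though under 20 CPM in every library. The primitive streak regulators T and Eomes stood at 2.81, 9.52 and 12.2 CPM and at 2.36, 6.92 and 9.47 CPM, and the homeobox gene Cdx2 at 3.09, 8.70 and 11.5 CPM. T, Eomes and Cdx2 were chosen after their values were seen. Other genes of the list were lower with FGF4, so the list has no common direction. Gsc stood at 2.11, 0.44 and 0.18 CPM, Mixl1 at 0.66, 0.44 and 0.45 CPM and Foxa2 at 0.61, 0.32 and 0.15 CPM.

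At the Kdm2b locus the noncoding gene A930024E05Rik, annotated on the opposite strand, was 3.56-fold higher (2.88 to 4.45) at 5 ng/ml and 4.39-fold higher (3.56 to 5.46) at 50 ng/ml, on 99, 620 and 828 UMIs. Kdm2b itself was 2.10-fold and 2.56-fold higher. Both were in rising order over the doses. Whether reads of the pair could be exchanged in counting was not tested.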
